A study of Mus musculus with 28 samples.

Results

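Cells of the mouse mammary gland that carried mutant PIK3CA from the basal layer and sorted through the luminal gate were compared with normal luminal cells of the same age after induction. Of the 28 arrays in the series, 4 belong to this comparison, chosen by their labels. Luminal K5PIK cells (2 arrays) came from female K5CREERT2 mice with PIK3CA-H1047R and the RosaYFP reporter, 10 months after tamoxifen. Luminal K8YFP cells (2 arrays) came from female K8CREERT2 mice with RosaYFP and no PIK3CA transgene, also at 10 months. Mice of every group received 3 injections of 5 mg tamoxifen, one every 3 days, from an age of 4 to 5 weeks. YFP-positive cells were sorted after digestion with collagenase and hyaluronidase. The groups therefore differ both in the oncogene and in the keratin promoter that drives Cre, and these cannot be told apart within the 4 arrays. The basal origin of the K5PIK cells rests on that Cre driver and was not measured by the arrays. In the group names K5 and K8 give the Cre driver, PIK the H1047R transgene with RosaYFP, and YFP the reporter alone. Groups drawn on for context were K8PIK and K8YFP luminal cells and K5YFP basal cells at 8 weeks. Further groups were K5PIK and K5YFP basal cells at 10 months and tumours of K5PIK mice. K8PIK basal cells at 8 weeks were used in the fit. Tumours of K8PIK mice and tumours labelled K8PIKp53 entered an alternative fit of all 28 arrays.

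The mammary ducts have an inner luminal layer, marked by keratins 8 and 18, and an outer basal layer of contractile myoepithelial cells, marked by keratins 5 and 14, p63 and smooth muscle actin. Luminal cells include hormone-sensing cells with oestrogen and progesterone receptors and progenitors with Elf5 and Kit. In the adult gland each layer is largely maintained by its own cells. PIK3CA encodes the catalytic subunit of PI3-kinase, which turns growth factor signals into AKT activity, and H1047R is a common activating mutation of its kinase domain.

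The deposited values were log2 expression values, used as deposited, with 1 probe set per gene and 13151 genes tested. Differences are K5PIK luminal minus K8YFP luminal on the log2 scale, given ± SE with limma's p adjusted by the Benjamini-Hochberg method over all genes tested, and a gene was called at an adjusted p under 0.05. The fit covered the 16 sorted arrays in 8 groups, so the spread was estimated over all of them. Labels do not say that replicates came from separate animals, so p-values measure the spread between these arrays, and their number limits the precision. The replicates of K5PIK luminal cells were the least alike of the 8 groups, with r = 0.9596 across genes against 0.975 to 0.9925 in the other groups. They differed at least 2-fold in 902 genes (6.86%), against 32 genes (0.243%) between the K8YFP luminal replicates.

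K5PIK luminal cells differed from K8YFP luminal cells in 841 of 13151 genes (6.39%). Of these 273 rose (2.08%) and 568 fell (4.32%), and 2944 genes had an unadjusted p under 0.05. At least 2-fold changes numbered 159 rises and 307 falls, and at least 8-fold changes 2 rises and 9 falls. In each of the 841 genes the K5PIK arrays lay on one side of the K8YFP arrays. Over all genes, arrays of the groups did not overlap in 20.4% (K5PIK higher) and 32.8% (K5PIK lower). The median over all genes was -0.07. After quantile normalization once more the median was 0.00 and the split moved to 420 rises and 418 falls, so the excess of falls depends on scaling. Leaving out single arrays gave 412 calls without K5PIK luminal replicate 1, 1338 without K5PIK luminal replicate 2, 146 and 119 without K8YFP luminal replicates 1 and 2, while a fit of all 28 arrays gave 100. Without each of the 4 arrays in turn, 28 rises and 54 falls were called every time. In these sorted bulk samples, fewer cells of a type and less RNA per cell cannot be told apart.

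The largest rise was in Amtn, which encodes amelotin, a secreted protein of enamel formation in teeth. Amtn lay at 9.42 and 8.56 in K5PIK luminal cells, against 3.87 and 4.10 in K8YFP luminal cells, a 32.2-fold difference (5.01 ± 0.47, adjusted p = 0.000285). Both K5PIK arrays stood far above every normal array of either lineage, the K5YFP basal arrays at 10 months being at 4.19 and 3.97. In the 3 tumours of K5PIK mice Amtn lay at 6.41, 5.26 and 7.50, and in the K5PIK basal cells at 4.37 and 4.88. Il17b, a cytokine of the interleukin-17 family, lay at 7.86 and 9.11 in K5PIK luminal cells, against 4.71 and 5.48 in K8YFP luminal cells (3.39 ± 0.51, adjusted p = 0.0036). Normal basal cells held more of it, at 9.66 and 10.20. Fbn2, which encodes a fibrillin of elastic microfibrils, had the smallest adjusted p of the 15 largest rises. Its levels were 8.25 and 8.42 in K5PIK luminal cells, against 5.53 and 5.35 in K8YFP luminal cells (2.89 ± 0.17, adjusted p = 5.24e-06), with replicates close together in both groups. Apod, a lipocalin that binds small lipids, lay at 10.26 and 10.13 in K5PIK luminal cells, against 7.46 and 7.15 in K8YFP luminal cells (2.89 ± 0.54, adjusted p = 0.00996). Its call was lost without either K8YFP luminal array (adjusted p up to 0.0899).

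Other large rises spanned several functions. The angiogenin-family ribonuclease Ang5 lay at 6.36 and 8.39 in K5PIK luminal cells, against 4.67 and 4.55 in K8YFP luminal cells (2.77 ± 0.69, adjusted p = 0.0338). It kept its call only without K5PIK luminal replicate 1, reaching 0.185 otherwise. Cstdc2, a gene of the cystatin family, lay at 7.56 and 6.89 in K5PIK luminal cells and at 4.59 in both K8YFP luminal arrays (2.63 ± 0.20, adjusted p = 4.82e-05). Slc5a7, the high-affinity choline transporter, lay at 6.36 and 6.56 in K5PIK luminal cells, against 3.97 and 3.99 in K8YFP luminal cells (2.48 ± 0.29). Ntrk2, the receptor for the neurotrophin BDNF, lay at 8.17 and 7.65 in K5PIK luminal cells, against 5.68 and 5.75 in K8YFP luminal cells (2.19 ± 0.26, adjusted p = 0.00106), whereas Bdnf itself fell (4.05 and 4.58 against 6.69 and 5.92, -1.99 ± 0.33). Probe sets for Ntrk2 with signal ranged in difference from 0.21 to 2.31. The orphan nuclear receptors Nr4a2 (2.33 ± 0.31) and Nr4a3 (1.54 ± 0.22) rose, Nr4a2 to 9.61 and 9.76 in K5PIK luminal cells, against 7.23 and 7.46 in K8YFP luminal cells. One of its 5 probe sets with signal was at -0.01. Gdpd3 (2.30 ± 0.33), Cytip (2.43 ± 0.43), the protease Ctsw (2.13 ± 0.29), the chemokine Cxcl14 (2.19 ± 0.52) and the Wnt modulator Sfrp2 (2.15 ± 0.39) completed the 15 with Myh11, described with the contractile genes. Of the 15, Amtn, Il17b, Fbn2, Cstdc2, Slc5a7, Nr4a2, Gdpd3, Ntrk2 and Ctsw were called without each of the 4 arrays in turn. Cytip and Sfrp2 lost their calls without K8YFP luminal replicate 2 (adjusted p = 0.0968 for both).

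The largest fall was in Epgn, which encodes epigen, a ligand of the EGF receptor. Epgn lay at 4.20 and 4.77 in K5PIK luminal cells, against 9.04 and 9.42 in K8YFP luminal cells, a 26.8-fold difference (-4.74 ± 0.58, adjusted p = 0.00121). The K5PIK arrays were below the normal basal arrays, at 4.83 and 5.09. Plac8 lay at 4.38 and 4.86 in K5PIK luminal cells, against 8.53 and 8.64 in K8YFP luminal cells (-3.97 ± 0.26, adjusted p = 1.05e-05). Aoc1, the diamine oxidase that degrades histamine, lay at 3.58 and 3.52 in K5PIK luminal cells, against 7.26 and 7.74 in K8YFP luminal cells (-3.94 ± 0.75). Both K5PIK values were under the array's 40th percentile, near the low end of the scale, and 1 of the 8-week normal luminal arrays was also low (3.76, beside 7.22). Krt6a, a keratin of stressed and differentiating epithelium, lay at 5.85 and 7.21 in K5PIK luminal cells, against 10.15 and 10.53 in K8YFP luminal cells (-3.81 ± 0.56, adjusted p = 0.00333).

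Itih2, a hyaluronan-binding plasma protein gene, fell to 4.98 and 5.67 in K5PIK luminal cells, against 8.86 and 8.91 in K8YFP luminal cells (-3.56 ± 0.35). Tph1, the rate-limiting enzyme of serotonin synthesis outside the brain, fell to 4.89 and 4.56 in K5PIK luminal cells, against 8.61 and 7.81 in K8YFP luminal cells (-3.48 ± 0.37, adjusted p = 0.000423). The growth factor Igf2 fell to 5.13 and 4.30 in K5PIK luminal cells, against 8.13 and 8.39 in K8YFP luminal cells (-3.54 ± 0.34, adjusted p = 0.000357). K8YFP luminal cells at 8 weeks lay at 5.49 and 6.11, nearer to the K5PIK level. Ffar4, a receptor for long-chain fatty acids, fell by 3.26 ± 0.46. The synaptic adhesion gene Nrxn3 fell by 2.93 ± 0.39, with both K5PIK values under the 40th percentile. Prss23 fell by 2.87 ± 0.42, though 1 of its 3 probe sets moved by only -0.37, and Steap1 fell by 2.82 ± 0.32. The angiotensin receptor Agtr1a (4.48 and 7.32 in K5PIK luminal cells, against 8.55 and 8.51 in K8YFP luminal cells), Fam43a (4.79 and 7.27 against 8.86 and 8.92), Ctse (3.88 and 6.03 against 8.10 and 8.50) and Lmo7 (5.43 and 6.85 against 8.59 and 9.15) fell with K5PIK replicates far apart. Probe sets for Lmo7 with signal ranged in difference from -2.74 to -0.87. Of the single-array omissions, only that of K5PIK luminal replicate 2 left Agtr1a, Ctse and Lmo7 called, and their highest adjusted p were 0.165, 0.187 and 0.103. Aoc1 and Fam43a lost their calls without either K8YFP luminal array.

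**Figure D1:**
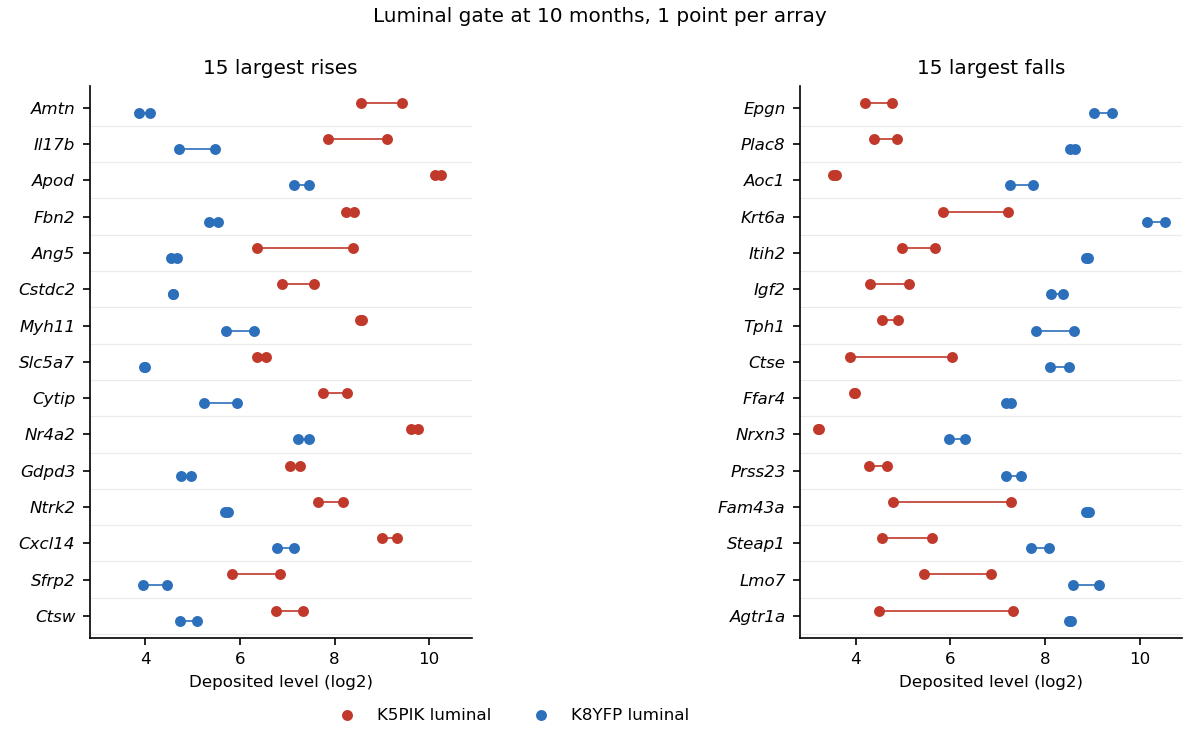
Deposited log2 level (horizontal axis) of the 15 largest rises (left) and 15 largest falls (right), 1 point per array, K5PIK luminal in red above K8YFP luminal in blue, with a line joining the 2 replicates. The groups are apart for every gene shown, and Ang5, Ctse, Fam43a and Agtr1a have the widest spread between K5PIK replicates.

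The 250 bases upstream of the transcription start are printed for 3 of the 5 largest rises and for the 3 largest falls, so that the regions in front of these genes can be read beside their levels. They are from RefSeq (GRCm38.p6, first listed start of each gene) and run 5′ to 3′ on the gene's strand, and capitals mark a match to 1 of 3 motifs.
Amtn, chr5:88375858-88376107, plus strand: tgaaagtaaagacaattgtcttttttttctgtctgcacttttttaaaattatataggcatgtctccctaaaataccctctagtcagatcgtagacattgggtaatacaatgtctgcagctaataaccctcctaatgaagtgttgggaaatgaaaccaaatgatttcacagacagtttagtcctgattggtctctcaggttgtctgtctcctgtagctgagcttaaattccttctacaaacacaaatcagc
Apod, chr16:31314809-31315058, minus strand: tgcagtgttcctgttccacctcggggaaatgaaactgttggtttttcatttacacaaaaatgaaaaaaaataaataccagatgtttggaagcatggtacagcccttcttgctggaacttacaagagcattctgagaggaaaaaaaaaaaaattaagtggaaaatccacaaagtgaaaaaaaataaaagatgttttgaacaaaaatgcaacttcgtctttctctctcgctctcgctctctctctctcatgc
Ang5, chr14:43956819-43957068, plus strand: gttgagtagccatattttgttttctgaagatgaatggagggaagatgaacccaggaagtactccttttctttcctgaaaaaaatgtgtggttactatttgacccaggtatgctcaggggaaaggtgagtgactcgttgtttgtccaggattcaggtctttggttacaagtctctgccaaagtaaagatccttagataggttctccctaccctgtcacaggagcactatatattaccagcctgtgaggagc
Epgn, chr5:91027267-91027516, plus strand: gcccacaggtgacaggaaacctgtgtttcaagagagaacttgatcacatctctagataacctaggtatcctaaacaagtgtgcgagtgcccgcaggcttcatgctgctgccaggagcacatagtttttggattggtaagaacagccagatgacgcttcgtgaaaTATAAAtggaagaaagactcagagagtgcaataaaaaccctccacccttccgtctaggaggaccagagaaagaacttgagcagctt
Plac8, chr5:100572206-100572455, minus strand: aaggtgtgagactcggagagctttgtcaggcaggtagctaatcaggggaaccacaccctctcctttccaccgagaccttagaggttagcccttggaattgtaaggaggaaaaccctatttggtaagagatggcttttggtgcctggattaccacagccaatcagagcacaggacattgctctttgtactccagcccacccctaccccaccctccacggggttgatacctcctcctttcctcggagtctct
Aoc1, chr6:48895005-48895254, plus strand: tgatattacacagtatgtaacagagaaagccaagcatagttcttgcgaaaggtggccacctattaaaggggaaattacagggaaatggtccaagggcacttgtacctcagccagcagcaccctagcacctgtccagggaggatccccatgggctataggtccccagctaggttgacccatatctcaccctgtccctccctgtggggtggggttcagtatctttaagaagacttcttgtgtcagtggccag
Each motif was searched on both strands, and none is contained in another. The SOX letters were AACAAT, read as ATTGTT on the opposite strand. The forkhead motif was searched as GTAAACA, with TGTTTAC on the opposite strand. The TATA box was searched as TATAAA, with TTTATA on the opposite strand. The Epgn window held TATAAA starting at -86, and the other 5 windows held none of these letters. Over promoters of the same length, the SOX letters were in 5.31% of the 207 genes that rose, 6.73% of the 446 that fell and 5.39% of 10529 tested genes. The forkhead letters were in 0.483%, 2.47% and 2.32%, and the TATA letters in 10.1%, 6.50% and 7.28%, in the same order. Over all 27025 promoters the shares were 9.65%, 3.09% and 13%.

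Markers of both epithelial layers were compared first. None of 18 luminal epithelial genes was called (median 0.03, against -0.07 over all genes). Krt8 lay at 12.00 and 11.91 in K5PIK luminal cells, against 12.02 and 12.12 in K8YFP luminal cells (-0.12 ± 0.17, adjusted p = 0.744), and Krt18 differed by 0.03 ± 0.27. Neither keratin separates the gates sharply on these arrays, since normal basal cells held Krt8 at 10.78 and 11.17 and Krt18 at 9.63 and 10.29. The K5PIK luminal arrays were above those basal arrays for both genes. A p above the threshold does not show equality.

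Basal keratins were raised but stayed far under the basal level. Krt5 lay at 8.66 and 8.69 in K5PIK luminal cells, against 6.90 and 7.37 in K8YFP luminal cells (1.54 ± 0.32, adjusted p = 0.0162), while normal basal cells lay at 11.45 and 11.54. Krt14 lay at 9.17 and 8.43 in K5PIK luminal cells, against 7.20 and 7.60 in K8YFP luminal cells (1.40 ± 0.31, adjusted p = 0.0212). Col17a1, a collagen of the hemidesmosomes that anchor basal cells, lay at 7.08 and 6.73 in K5PIK luminal cells, against 5.06 and 5.46 in K8YFP luminal cells (1.65 ± 0.41, adjusted p = 0.0341). These were the 3 of 19 basal epithelial genes called, all higher (list median 0.33). The basal transcription factor Trp63 was at 5.55 and 6.19 in K5PIK luminal cells, against 4.87 and 4.92 in K8YFP luminal cells (0.97 ± 0.31, adjusted p = 0.0818). Krt14 at 8 weeks in normal luminal cells was higher than at 10 months, at 8.39 and 8.46, which overlaps the K5PIK range. When single arrays were left out, each of the 3 calls held only without K5PIK luminal replicate 2 (adjusted p up to 0.145 for Krt5, 0.178 for Krt14 and 0.229 for Col17a1).

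Among 12 myoepithelial contractile genes 2 rose and 1 fell (median 0.19). Myh11, the smooth muscle myosin heavy chain, lay at 8.57 and 8.53 in K5PIK luminal cells, against 5.70 and 6.29 in K8YFP luminal cells (2.56 ± 0.56, adjusted p = 0.0202). Mylk, the kinase that activates it, lay at 7.98 and 7.89 in K5PIK luminal cells, against 5.95 and 5.90 in K8YFP luminal cells (2.01 ± 0.45, adjusted p = 0.0218). Probe sets for Mylk with signal ranged in difference from 0.52 to 2.01. Myh11 and Mylk had reached 8.16 and 7.45 in 1 of the 2 normal luminal arrays at 8 weeks, close to the K5PIK levels. Acta2 was at 1.06 ± 0.48 (adjusted p = 0.214) and the tropomyosin Tpm1 fell by 0.59 ± 0.15, a call lost after quantile normalization (adjusted p = 0.0668) and whichever of the 4 arrays was left out. Myh11 and Mylk kept their calls only without K5PIK luminal replicate 2 (adjusted p up to 0.162 and 0.141).

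On a linear scale, the excess over K8YFP luminal cells can be set against the excess of normal basal cells at 10 months, where 100% is the basal level. For 13 basal epithelial genes this share had a median of 4.24% and a range of -0.669% to 27.3%, the highest in Krt15. For 9 contractile genes the median was 3.57%, from -8.72% to 11.2%, the highest in Myh11. Krt5 stood at 9.72%, Krt14 at 7.95%, Trp63 at 4.24% and Acta2 at 6.10%. Over 247 genes at least 4-fold higher in normal basal cells the median was 3.29% (quartiles 0.649% and 7.44%). Il17b (37.4%), Sfrp2 (59.6%) and Nr4a2 (93.3%) stood above the upper quartile of this set. Fbn2 (294%) was outside the set, since its normal basal excess at 8 weeks was only 1.24 on the log2 scale. All of these genes were named for their large rises, so they do not show how widely the share varied between genes.

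**Figure D2:**
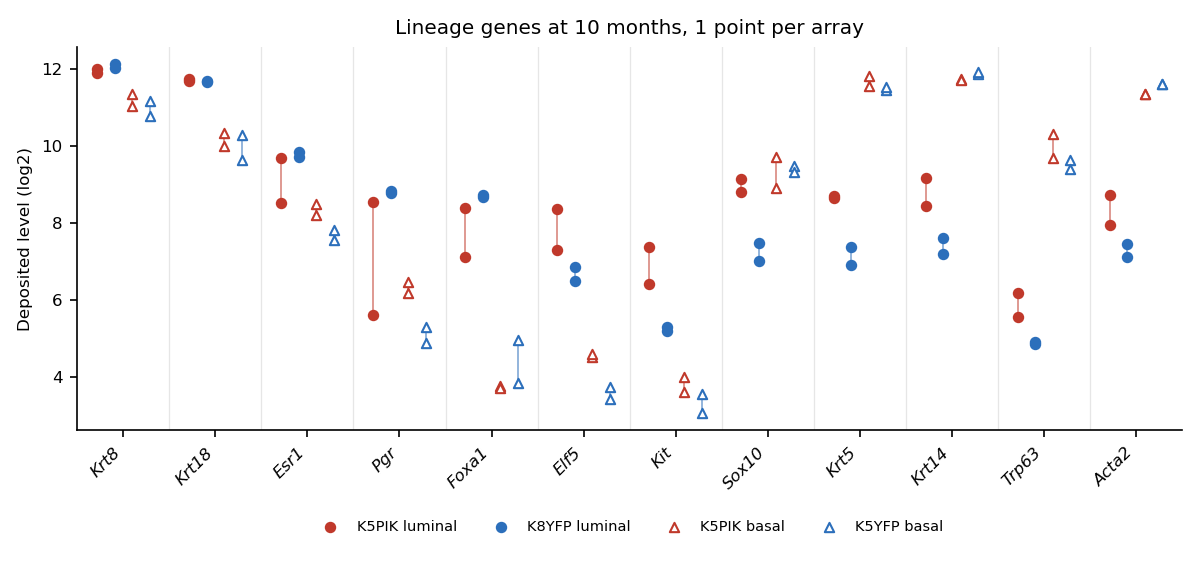
Deposited log2 level of 12 lineage genes at 10 months, 1 point per array, in K5PIK luminal (red circles), K8YFP luminal (blue circles), K5PIK basal (red triangles) and K5YFP basal cells (blue triangles), with lines joining replicates. Krt5 and Krt14 in K5PIK luminal cells lie between the K8YFP luminal and the basal arrays, and Pgr differs between the K5PIK luminal replicates (5.62 and 8.54).

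Of 12 hormone-sensing genes 2 lay above 0, against 42.6% of all genes tested, and 2 were called, both lower (median -0.72). After quantile normalization Fxyd3 was also called, higher. Tbx3, a transcription factor of mammary development, fell to 5.86 and 6.55 in K5PIK luminal cells, against 7.84 and 7.94 in K8YFP luminal cells (-1.68 ± 0.21, adjusted p = 0.00129). S100a6 fell by 1.21 ± 0.25 (adjusted p = 0.0168). Receptors themselves were split by replicate. Pgr, the progesterone receptor, was at 5.62 and 8.54 in K5PIK luminal cells, against 8.83 and 8.77 in K8YFP luminal cells (-1.72 ± 0.64, adjusted p = 0.129). Esr1 was at 8.51 and 9.69 against 9.71 and 9.84 (-0.67 ± 0.33, adjusted p = 0.251), and Foxa1, the pioneer factor of the oestrogen receptor, at 7.13 and 8.38 against 8.67 and 8.74 (-0.95 ± 0.39, adjusted p = 0.172). Replicate 1 was the low one for Pgr, Esr1, Foxa1 and Agtr1a. The S100a6 call held only without K5PIK luminal replicate 2 (adjusted p up to 0.143), and the Tbx3 call held without each array.

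Of 13 luminal progenitor genes 4 rose and 1 fell (median 0.43). Elf5, the transcription factor of alveolar progenitors, lay at 7.29 and 8.36 in K5PIK luminal cells, against 6.85 and 6.50 in K8YFP luminal cells (1.15 ± 0.28, adjusted p = 0.0302). The receptor tyrosine kinase Kit lay at 6.41 and 7.39 in K5PIK luminal cells, against 5.20 and 5.29 in K8YFP luminal cells (1.65 ± 0.30, adjusted p = 0.00877). Sox10, a neural crest factor also found in mammary progenitors, lay at 9.15 and 8.81 in K5PIK luminal cells, against 7.47 and 7.02 in K8YFP luminal cells (1.74 ± 0.26, adjusted p = 0.00333). Its K8YFP luminal level at 8 weeks was 8.99 and 9.30, so the K5PIK level was not above that of younger normal luminal cells. For Elf5 those younger cells lay at 7.02 and 7.33, which also overlaps the K5PIK range. The tetraspanin Tspan8 rose by 2.06 ± 0.37 (9.56 and 9.22 against 7.68 and 6.99) and Sox9 fell by 0.71 ± 0.17, a call lost after quantile normalization (adjusted p = 0.0679). Elf5 and Sox9 kept their calls only without K5PIK luminal replicate 1 (adjusted p up to 0.217 and 0.179), Kit lost its call without either K8YFP luminal array (up to 0.0779), and Tspan8 without K8YFP luminal replicate 2 (0.0968).

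Of 16 milk genes only Muc15 was called, higher at 7.30 and 7.28 in K5PIK luminal cells, against 5.76 and 5.38 in K8YFP luminal cells (1.72 ± 0.30, adjusted p = 0.00778). In younger K8YFP luminal cells it lay at 7.18 and 6.67. After quantile normalization Wap was called as well, higher. Pigr, which carries immunoglobulin across the epithelium into milk and was named after its values were seen, rose by 1.94 ± 0.40 (8.54 and 8.22 against 6.58 and 6.30). Of 16 squamous genes 2 fell, Krt6a and S100a8 (-1.83 ± 0.40, adjusted p = 0.0199), and 0 rose. Besides Sox10, the neural crest list had Mia, a secreted protein first known from melanoma, called higher (1.20 ± 0.26, adjusted p = 0.0199), which made 2 of 14 higher and, with Sox9, 1 lower. The calls of Mia and Pigr held only without K5PIK luminal replicate 2, that of Muc15 was lost without K8YFP luminal replicate 2, and that of S100a8 without K5PIK luminal replicate 2 or K8YFP luminal replicate 1.

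Genes were then classed by the normal lineage difference at 8 weeks, K5YFP basal against K8YFP luminal cells, in arrays that the 10-month comparison does not use. There 3987 genes were called (30.3%). Basal-high genes, called and at least 2-fold higher in basal cells, numbered 829 (6.30%), and luminal-high genes 1252 (9.52%). Of the 273 rises 60 were basal-high (22.0%), 19 luminal-high (6.96%) and 194 neither. Of the 568 falls 182 were luminal-high (32.0%), 10 basal-high (1.76%) and 376 neither. Seen from the sets, the basal-high genes had a median of 0.20 with 60 higher and 10 lower, and the luminal-high genes a median of -0.43 with 182 lower and 19 higher. The numbers of basal-high rises and luminal-high falls were 24 and 62 without K5PIK luminal replicate 1, 81 and 341 without K5PIK luminal replicate 2, 13 and 43 without K8YFP luminal replicate 1, and 9 and 39 without K8YFP luminal replicate 2. The share of rises that was basal-high ran from 17.4% to 24.5% over these, and the share of falls that was luminal-high from 22.6% to 48.8%. Among the 15 largest rises Il17b, Fbn2, Myh11, Cxcl14, Sfrp2 and Nr4a2 were basal-high, Cytip was luminal-high, and the others were neither. Among the 15 largest falls Igf2 was basal-high, Aoc1 and Prss23 were neither, and the others were luminal-high.

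**Figure D3:**
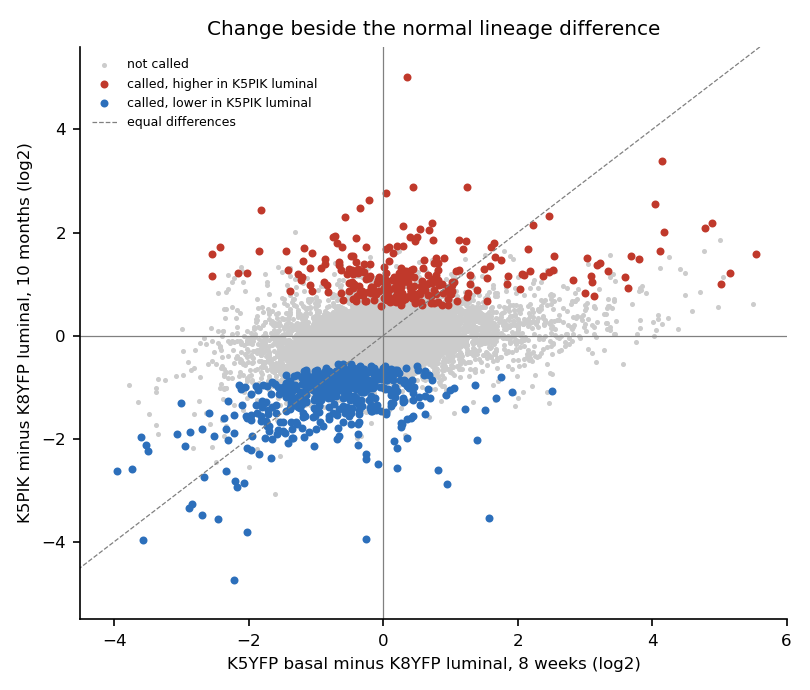
Log2 difference of K5PIK minus K8YFP luminal cells at 10 months (vertical) against the normal difference of K5YFP basal minus K8YFP luminal cells at 8 weeks (horizontal), 1 point per gene tested, with called rises in red and called falls in blue. Of the 273 rises 60 were basal-high and of the 568 falls 182 luminal-high, and most strongly basal genes at the right lie well under the dashed line of equal differences.

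Many called genes lay outside both normal lineages at 10 months. The K5PIK luminal arrays were above all 4 normal luminal and basal arrays in 169 of the 273 rises, and below all 4 in 248 of the 568 falls. Over all genes tested this held for 10.2% above and 12.1% below. Every called gene already lay on one side of the K8YFP luminal arrays, so these shares are not a like base. Of all 2686 genes with K5PIK arrays above both K8YFP luminal arrays, 1338 were above all 4 normal arrays. Of all 4319 with K5PIK arrays below both, 1585 were below all 4. Cav1, the coat protein of caveolae, named after its values were seen, fell to 5.70 and 5.59 in K5PIK luminal cells, against 8.13 and 8.29 in K8YFP luminal cells (-2.57 ± 0.27, adjusted p = 0.000446). Normal basal cells lay higher still, at 9.70 and 9.94, and K5PIK basal cells at 8.65 and 8.87. Also below all 4 normal arrays were Prss23, Igf2, Bdnf, the small heat shock protein Hspb8 (-2.03 ± 0.33) and Wnt5a. Unlike Cav1, Igf2 was lower in normal basal cells (6.27 and 6.86) than in K8YFP luminal cells (8.13 and 8.39). Probe sets with signal ranged in difference from -2.03 to -0.33 for Hspb8 and from -1.99 to -0.55 for Bdnf. Amtn, Apod, Cstdc2, Slc5a7, Cytip, Gdpd3, Ntrk2, Ctsw, Kit and Rb1 were above both normal lineages. Ptx3, a pentraxin of innate immunity named after its values were seen, rose by 2.09 ± 0.40 but stayed under normal basal cells (7.22 and 6.79 against 5.18 and 4.65, with 10.46 and 10.51 in K5YFP basal cells). The call of Bdnf was lost without K8YFP luminal replicate 1 (adjusted p = 0.073), that of Hspb8 without K8YFP luminal replicate 2 (0.0707), and that of Ptx3 without K5PIK luminal replicate 1 or K8YFP luminal replicate 2 (up to 0.121).

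None of 23 genes of PI3-kinase signalling and none of 19 FOXO-induced genes, which AKT represses through FOXO factors, was called (medians 0.05 and -0.18). Pik3ca itself lay at 7.35 and 7.34 in K5PIK luminal cells, against 7.63 and 7.55 in K8YFP luminal cells (-0.25 ± 0.17, adjusted p = 0.418), and the probe sets with signal disagreed in sign (-0.80 to 0.59). The labels do not say whether these probes read the human or mouse sequence of the transgene, so they do not check the genotype. After quantile normalization the FOXO-induced genes Fbxo32 and Bcl2l11 were called, both higher. In ERK feedback, Spry2 rose (0.90 ± 0.24, adjusted p = 0.0459) and its paralog Spry1 fell (-1.21 ± 0.21, adjusted p = 0.0083), 2 of 13 genes in all. Of 14 immediate early genes, which respond to tissue dissociation, 0 were called (median 0.06). Nr4a1, a member of this list, was at 1.13 ± 0.43 (adjusted p = 0.138). Its relatives Nr4a2 and Nr4a3, outside the list, were called higher (2.33 and 1.54).

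Of 14 EGF family genes 3 fell and 0 rose (median -0.12). Beside Epgn these were betacellulin, Btc, another EGF receptor ligand (4.45 and 4.88 in K5PIK luminal cells, against 5.96 and 6.00 in K8YFP luminal cells, -1.31 ± 0.23, adjusted p = 0.00836), and Errfi1, a feedback inhibitor of the receptor (-0.67 ± 0.18, adjusted p = 0.0479). Errfi1 was not called after quantile normalization (adjusted p = 0.063). The receptor genes Egfr and Erbb2 were at 0.54 and 0.07, uncalled. Of 25 Wnt genes 3 rose and 2 fell (median 0.30). The rises were Sfrp2, the stem cell receptor Lgr5 (4.46 and 3.96 against 2.92 and 3.05, 1.22 ± 0.28) and Sfrp1 (1.13 ± 0.30, adjusted p = 0.0459), and after quantile normalization Lrp6, Lgr4 and Lgr6 joined them. Both K8YFP values of Lgr5 were under the 40th percentile, while normal basal cells had 8.95 and 8.84. The falls were the non-canonical ligand Wnt5a (3.67 and 3.50 against 5.35 and 5.84, -2.01 ± 0.36, adjusted p = 0.00846), with both K5PIK values under the 40th percentile, and Porcn, the acyltransferase needed to secrete Wnt proteins (-1.17 ± 0.24, adjusted p = 0.0166). Porcn, Btc, Errfi1, Lgr5, Sfrp1 and Spry2 kept their calls only without K5PIK luminal replicate 2, and Wnt5a and Spry1 lost theirs without K8YFP luminal replicate 2 (adjusted p = 0.0968 and 0.0995).

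The other signalling lists had at most 1 call each. Dtx4, a Notch regulator, fell by 1.59 ± 0.32 (1 of 17), the BMP receptor Bmpr1b by 1.29 ± 0.29 (1 of 21 TGF-beta and activin genes), and Igf2 was the 1 of 10 genes of the IGF axis. Il17b was the 1 of 17 interleukin genes, and Il17rb, which encodes its receptor, was at 0.50 without a call. Cxcl14, a chemokine of epithelium, was the 1 of 15 chemokines and lay at 9.33 and 9.0 in K5PIK luminal cells, against 6.79 and 7.15 in K8YFP luminal cells and 11.74 and 11.76 in K5YFP basal cells. Irf7 (0.71 ± 0.18, adjusted p = 0.0332) was the 1 of 16 interferon genes, and the 15 genes of MHC class I and II had 0. After quantile normalization Notch1, Tgfb3 and Stat2 were also called, all higher. The calls of Dtx4, Bmpr1b and Cxcl14 held only without K5PIK luminal replicate 2, and the Irf7 call was lost whichever of the 4 arrays was left out.

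Of 24 matrix genes 5 rose and 0 fell (median 0.33). Amtn and Fbn2 led them. Postn, a matricellular protein, lay at 6.90 and 6.40 in K5PIK luminal cells, against 5.42 and 5.13 in K8YFP luminal cells (1.37 ± 0.24, adjusted p = 0.00767), with 10.06 and 10.22 in normal basal cells and 6.21 and 6.97 in normal luminal cells at 8 weeks. The fibrillar collagen gene Col5a2 rose by 1.25 ± 0.29 (adjusted p = 0.025) and Col16a1 by 1.05 ± 0.25 (adjusted p = 0.0265), both called only without K5PIK luminal replicate 2 among these omissions. Both K8YFP values of Col5a2 (3.88 and 3.86) were under the 40th percentile, and Postn lost its call without K8YFP luminal replicate 2 (adjusted p = 0.0889). Of 13 genes of mesenchymal transition 0 were called. In 17 tight junction genes 2 fell and 0 rose (median -0.27). Claudin 6, Cldn6, fell to 5.52 and 6.30 in K5PIK luminal cells, against 8.26 and 7.82 in K8YFP luminal cells (-2.13 ± 0.29, adjusted p = 0.00264), and Cldn8 fell by 0.91 ± 0.21 (adjusted p = 0.0272) with both K5PIK values under the 40th percentile. The Cldn8 call was lost without K5PIK luminal replicate 1 (adjusted p = 0.162), and the gene fell under the filter on dim genes without either K8YFP luminal array.

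Cell cycle genes showed no call in either direction among 21 proliferation genes (median 0.02), with Mki67 at 0.42 and Top2a at 0.02. Rb1, the retinoblastoma protein that restrains S phase, was the 1 of 13 genes called among cyclin-kinase inhibitors and related genes. It lay at 8.37 and 8.23 in K5PIK luminal cells, against 6.68 and 6.32 in K8YFP luminal cells (1.80 ± 0.24, adjusted p = 0.00225). Among 15 p53 targets 1 lay above 0, against 42.6% of all genes (median -0.55), and 1 was called, the kinase gene Plk2 (7.79 and 7.95 against 8.68 and 8.91, -0.93 ± 0.17, adjusted p = 0.00909). Metabolic lists held few calls, namely Slc16a3, a lactate transporter, among 14 glycolysis genes (0.83 ± 0.22, adjusted p = 0.0423), and 0 of 14 sterol and fatty acid and 0 of 12 hypoxia genes. After quantile normalization Pmaip1, a p53 target, was called lower, and Cdk6 and, in the tight junction list, Tjp3 were called higher. Over all 37 lists, 27 of 500 tested genes rose and 19 fell. Over all 13151 genes tested 273 rose (2.08%) and 568 fell (4.32%), and these shares are also the base for each single list. The Slc16a3 call was lost whichever of the 4 arrays was left out, and the Plk2 call without K8YFP luminal replicate 2 (adjusted p = 0.105).

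**Figure D4:**
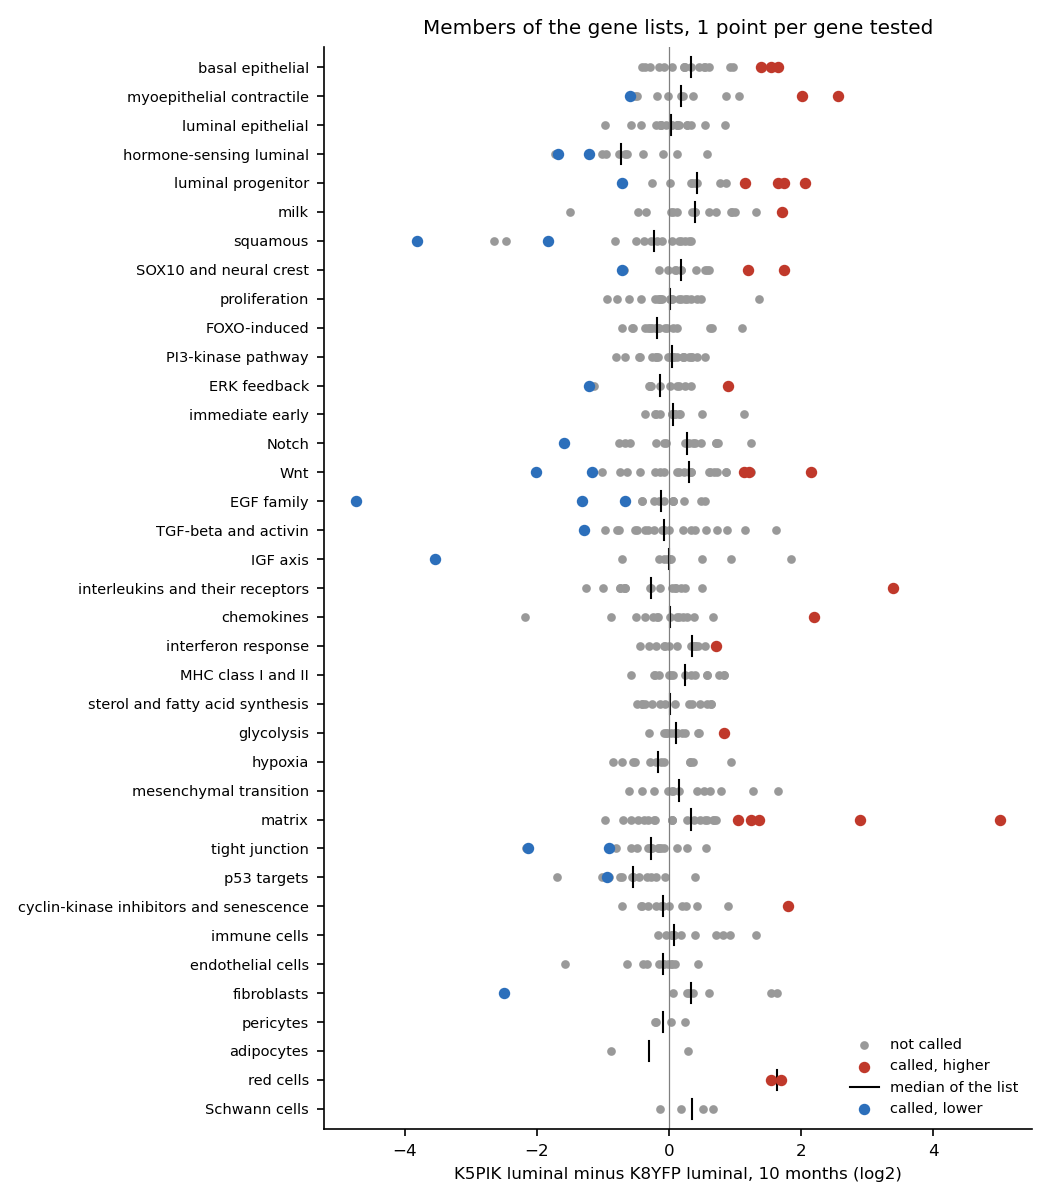
Log2 difference of K5PIK minus K8YFP luminal cells at 10 months (horizontal axis) for each tested member of 37 gene lists, with called rises in red, called falls in blue and the list median as a black bar. Matrix genes have 5 rises and 0 falls, EGF family genes 3 falls and 0 rises, and luminal epithelial genes no call.

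Markers of other cell types were counted as well. None of 13 immune, 12 endothelial, 4 pericyte, 2 adipocyte and 4 Schwann cell genes was called, though the B cell gene Cd79a was called higher after quantile normalization. In the immune list 11 genes lay above 0 and 2 below (median 0.08), against 42.6% above 0 over all genes tested. Of 8 fibroblast genes 7 lay above 0 without a call (median 0.33), among them Col1a1 at 1.64 ± 0.88 and Col3a1 at 1.54 ± 0.87. The eighth, Dcn, fell (8.56 and 6.74 in K5PIK luminal cells, against 10.18 and 10.10 in K8YFP luminal cells, -2.49 ± 0.52). The part of fibroblast RNA in the 5 matrix rises was not tested. Summed log2 levels were 9.47 and 8.94 in K5PIK luminal cells, against 8.69 and 8.76 in K8YFP luminal cells, for the immune list, 9.05 and 8.51 against 9.11 and 9.16 for the endothelial list, and 10.16 and 8.53 against 10.43 and 10.36 for the fibroblast list. The most abundant of the other lists, all uncalled, were Cd68 (7.72 and 7.03 against 6.43 and 6.68), Vwf (5.85 and 5.91 against 7.36 and 7.54), Notch3 (9.10 and 9.27 against 9.37 and 9.40), Fabp4 (8.48 and 6.39 against 8.38 and 8.26) and Pmp22 (6.95 and 6.49 against 6.04 and 6.06). Both genes of the red cell list rose, the haemoglobin gene Hba-a1 (11.45 and 11.52 against 9.63 and 10.23, 1.55 ± 0.31, adjusted p = 0.0141, with 11.93 and 11.51 in normal luminal cells at 8 weeks) and Alas2 (1.70 ± 0.42, adjusted p = 0.0316). Alas2 lay at 7.13 and 6.83 in normal luminal cells at 8 weeks, near the K5PIK luminal level of 7.16 and 7.31. Outside the list, the haemoglobin gene Hbb-b2 rose as well (1.23 ± 0.27, adjusted p = 0.0199), a call kept only without K5PIK luminal replicate 1 when single arrays were left out. The log2 sums of the red cell list were 11.52 and 11.59 in K5PIK luminal cells, against 9.71 and 10.29 in K8YFP luminal cells, and their part in other results was not tested. Between the K5PIK luminal replicates, Cd3e (6.03 and 3.42), Col1a1 (8.48 and 6.33), Trib3 (8.48 and 5.93) and Chac1 (9.47 and 7.10), named after their values were seen, were higher in replicate 1, and the part of this difference in the results was not tested. The Hba-a1 call was lost without K8YFP luminal replicate 1, that of Dcn without either K8YFP luminal array, and that of Alas2 whichever of the 4 arrays was left out.

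The oncogene was also compared in luminal cells of luminal origin, K8PIK against K8YFP luminal cells at 8 weeks, which shares no array with the comparison at 10 months. In that contrast 46 genes were called (0.350%), 19 higher (0.144%) and 27 lower (0.205%). Both contrasts called 22 genes in the same direction and 0 in opposite directions. The 7 shared rises are 2.56% of the rises at 10 months and 36.8% of those at 8 weeks, and the 15 shared falls are 2.64% and 55.6%. The 19 genes that rose at 8 weeks had a median of 0.37 at 10 months, and the 27 that fell a median of -1.04. The contrasts differ in the time after tamoxifen and in the Cre driver as well, and at 8 weeks the Cre driver is the same in both groups. The 8-week count was 28 and 6 without K8YFP luminal replicates 1 and 2, 10 and 58 without K8PIK luminal replicates 1 and 2, and 4 in the fit of all arrays.

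Shared rises were Amtn, Krt5, Krt14, Col17a1, the adenylyl cyclase gene Adcy5, the protein kinase C gene Prkca and Pgm5. Amtn at 8 weeks lay at 8.16 and 6.24 in K8PIK luminal cells, against 3.77 and 3.53 in K8YFP luminal cells (3.55 ± 0.47). Krt5 rose by 1.54 ± 0.32 at 10 months and by 2.81 ± 0.32 at 8 weeks, and their difference was not called (-1.27, adjusted p = 0.276). Among shared falls, Plac8 fell by 3.97 ± 0.26 and 2.54 ± 0.26, Itih2 by 3.56 ± 0.35 and 2.08 ± 0.35, and Nrxn3 by 2.93 ± 0.39 and 2.10 ± 0.39. Bdnf (-1.99 and -2.59), the myeloid receptor gene Pira1 (-2.15 and -3.06), Cntnap2 (-2.62 and -1.69), Fam3b (-2.18 and -1.75), the calcium channel gene Trpc6 (-1.65 and -1.75) and Syn2 (-1.91 and -2.92) also fell in both. Porcn, Plk2, Rsph1, Qrsl1, 4930523C07Rik and Gm13261 complete the 15. Both K5PIK values of Pira1, Fam3b, Trpc6, Nrxn3 and Gm13261 were under the 40th percentile. At 10 months the calls of Prkca, Pgm5 and Syn2 held only without K5PIK luminal replicate 2 (adjusted p up to 0.148, 0.149 and 0.295), and Syn2 was not called after quantile normalization (adjusted p = 0.06). Adcy5 and Trpc6 lost theirs without K8YFP luminal replicate 2, Rsph1 without either K8YFP luminal array, and Gm13261 without K5PIK luminal replicate 1 or K8YFP luminal replicate 2. None of the 22 was called for a difference between the contrasts, the lowest adjusted p being 0.148. The 22 were picked for a call in both contrasts, and a missing call does not show equal changes. Differences reached -1.48 in Itih2 and 1.46 in Amtn.

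**Figure D5:**
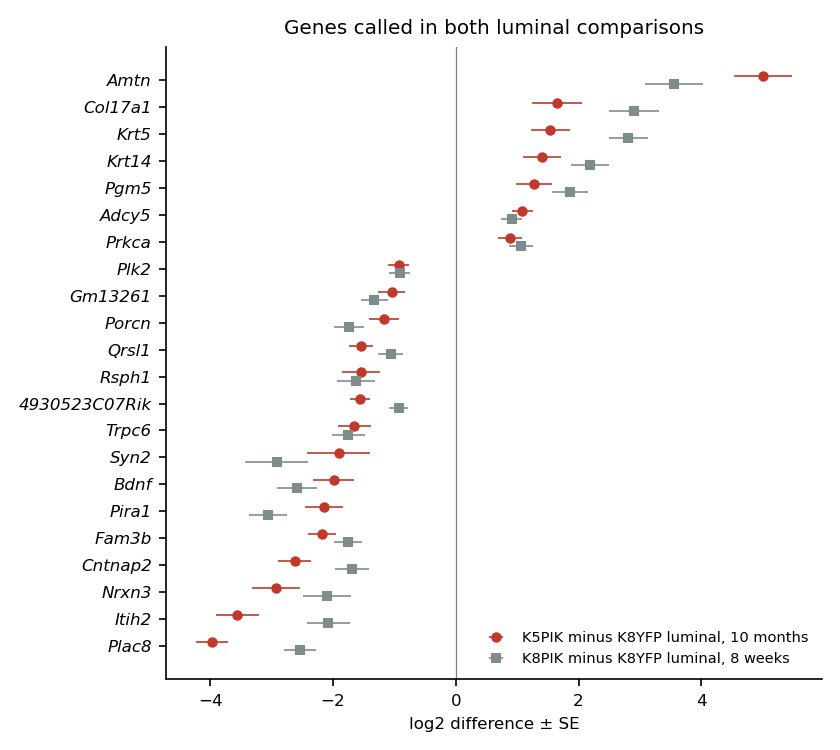
Log2 difference ± SE of the 22 genes called in both luminal comparisons, with K5PIK minus K8YFP at 10 months as red circles and K8PIK minus K8YFP at 8 weeks as grey squares. All 22 changed in the same direction, from Amtn (5.01 and 3.55) to Plac8 (-3.97 and -2.54).

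A direct test of the difference between these luminal contrasts called 11 genes (0.0836%), 7 with a more positive change at 10 months (0.0532%) and 4 with a more negative one (0.0304%), and 1632 had an unadjusted p under 0.05. Il24, a cytokine of the interleukin-10 family, rose by 2.84 ± 0.30 at 8 weeks and was at -0.74 ± 0.30 at 10 months. The protease gene Klk6 rose by 1.85 ± 0.24 at 8 weeks and was at -0.38 ± 0.24 at 10 months. Fbn2 rose by 2.89 at 10 months and was at 0.79 ± 0.17 at 8 weeks. Without K8YFP luminal replicate 1 of 10 months 0 genes were called by limma for this difference (1013 at an unadjusted p under 0.05). Only 1 gene was called without replicate 2 of that group, 3 without K8YFP luminal replicate 2 of 8 weeks, and 138 and 57 without K5PIK luminal replicates 1 and 2.

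In the basal gate the oncogene was compared between K5PIK and K5YFP cells at 10 months, in arrays separate from those of the luminal gate and with the same Cre driver in both groups. There 2143 genes were called (16.3%), 1089 higher (8.28%) and 1054 lower (8.01%). The luminal and basal contrasts shared 51 rises, 18.7% of the luminal and 4.68% of the basal ones, and 89 falls, 15.7% and 8.44%. Another 2 genes rose in the luminal and fell in the basal gate, and 25 did the reverse. Apod rose in both (2.89 ± 0.54 and 1.77 ± 0.54), as did Mia, Elf5, Tspan8 and Muc15. Amtn was at 0.54 ± 0.47 in the basal gate. The difference between the gates was called for 940 genes (7.15%), 258 more positive (1.96%) and 682 more negative (5.19%) in the luminal gate. The basal count was 343 and 1124 without K5YFP basal replicates 1 and 2 and 367 without K5PIK basal replicate 2, against 1952 without K5PIK basal replicate 1. The count of differences was 255 and 2359 without K5PIK luminal replicates 1 and 2, 153 and 65 without K8YFP luminal replicates 1 and 2, 208 without K5PIK basal replicate 2 and 85 without K5YFP basal replicate 1.

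Values in the 3 tumours of K5PIK mice are given as a description, since these arrays were not part of the fit. Cstdc2 lay at 10.25, 8.34 and 8.20, Apod at 11.68, 11.57 and 11.45, and Ntrk2 at 8.73, 7.97 and 7.97, each within or above the range of the K5PIK luminal arrays. Fbn2 lay at 8.22, 7.82 and 7.82. Epgn was at 5.02, 6.62 and 6.46 and Plac8 at 6.22, 6.33 and 7.04, between the K5PIK and K8YFP luminal levels. Cav1, at 8.23, 8.93 and 8.22, and Krt6a, at 8.59, 9.97 and 9.65, were above the K5PIK luminal arrays in all 3 tumours.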

How the data were processed

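The authors deposited log2 expression values of Affymetrix arrays (45141 probe sets, 28 arrays, 1.67 to 12.75), made with R 2.14.0 per the submitters' processing notes; the normalization is not given in the sources used here. Probe sets were named through the platform's annotation, 28898 with 1 symbol, 551 with several and 15692 without an entry, and symbols were updated by gene ID for 28689. Each of 17097 genes was represented by its brightest probe set on average. Genes above an array's 40th percentile on at least 2 arrays were tested (13151). limma 3.58.1 in R 4.3.3 was fitted to the 16 sorted arrays in 8 groups, with no covariate, and its script was tested on simulated data. With 2 arrays against 2, an exact permutation test cannot go below p = 0.333, so single values rest on the fit across genes. Labels give no batch or scan date.

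The genes named by rule are the 15 largest rises and falls among called genes whose groups do not overlap, from each list the called genes with the largest change (4 at most), the 4 largest of each sign among genes called in each difference of contrasts, fixed lineage genes, and the most abundant members of the lists of other cell types. Others were named after their values were seen: those so marked, Bdnf, Hspb8, Nr4a3, Krt15, Sfrp1, Col16a1, list members given as uncalled or as called only after quantile normalization, and the genes called in both luminal contrasts that the rule does not name. The members and lists were chosen with earlier results of these data known. Labels give same-numbered replicates no link beyond the number, so no pairing was used. Alternatives covered normalization, filter, probe set choice, prior, arrays in the fit, replicate block and single-array omission. Promoters came from RefSeq (GRCm38.p6); protein sequences were not used here. Python 3.11.15 with pandas 2.3.3, numpy 2.4.6 and matplotlib 3.10.9 made the summaries and figures.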

Additional observations from a re-analysis of the deposited data

Results flagged for a closer look

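By limma's interaction test over all genes, the change in K5PIK luminal cells differed from the change in K8PIK luminal cells at 8 weeks for 9 of 133 named genes. Over all 13151 genes tested it called 11 (0.0836%). The largest genes called by this same test were named by rule, so the share among named genes is not a result about them. The largest of each sign are given first. Il24 (difference -3.58 ± 0.42, adjusted p = 0.00912) and Klk6 (-2.24 ± 0.34, adjusted p = 0.0368) rose at 8 weeks and were at -0.74 and -0.38 at 10 months. Fbn2 (2.10 ± 0.24, adjusted p = 0.00912) rose by 2.89 at 10 months, against 0.79 at 8 weeks. Cntn1, a neural adhesion gene (-1.92 ± 0.27, adjusted p = 0.0267), and S100a14 (-1.93 ± 0.31, adjusted p = 0.0457) fell by 1.69 and 1.50 at 10 months and were at 0.23 and 0.44 at 8 weeks. The protease inhibitor gene Wfdc12 (2.73 ± 0.41, adjusted p = 0.0368) was at 1.04 and -1.69. The haemoglobin genes Hba-a1 (2.69 ± 0.44, adjusted p = 0.0457) and Hbb-b2 (2.51 ± 0.38, adjusted p = 0.0368) were at 1.55 and 1.23 at 10 months, against -1.14 and -1.28 at 8 weeks. The ninth was Cstdc2 (1.79 ± 0.29, adjusted p = 0.0457), at 2.63 and 0.84. Both K5PIK values of Cntn1 and S100a14 were under the 40th percentile. For Cntn1, K8YFP luminal cells lay at 5.25 and 5.21 at 10 months and at 3.69 and 3.63 at 8 weeks. The 8-week values are near those of K5PIK luminal cells (3.57 and 3.51). Hbb-b2 lay at 9.70 and 10.10 in K8YFP luminal cells at 10 months and at 11.08 and 11.06 at 8 weeks. In K5PIK luminal cells it was at 10.96 and 11.29. Differences between the 2 K8YFP times thus enter these values.

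The change differed from that in K5PIK basal cells for 58 of the 133 named genes, against 940 of all 13151 tested (7.15%). Many named genes were picked for a large change in the luminal gate or by this same test. Their count is therefore not a result about them. The 4 largest of each sign follow. Epgn (-5.10 ± 0.82, adjusted p = 0.00844), Plac8 (-4.18 ± 0.37, adjusted p = 0.000675) and Aoc1 (-4.20 ± 1.06, adjusted p = 0.037) fell in the luminal gate and were at 0.36, 0.21 and 0.26 in the basal gate. Amtn (4.47 ± 0.66, adjusted p = 0.00629) was at 5.01 in the luminal and 0.54 in the basal gate. The claudin gene Cldn10 (-4.09 ± 0.85, adjusted p = 0.0195) was at -2.16 and 1.93. Bcat1, an aminotransferase of branched-chain amino acids (3.78 ± 0.46, adjusted p = 0.00378), was at -0.03 in the luminal gate and at -3.82 in the basal gate. Sh2d5 (4.74 ± 0.93, adjusted p = 0.0163) was at 1.38 and -3.36, and Ramp3, a partner of peptide hormone receptors (3.90 ± 0.87, adjusted p = 0.0251), at 1.19 and -2.70. Between these 2 contrasts the gate and the Cre driver of the YFP cells change together and cannot be told apart.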

How the results depend on the processing

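The 841 calls between K5PIK and K8YFP luminal cells became 100 in the fit of all 28 arrays, 65 with only the arrays of the contrast and 1770 (508 higher, 1262 lower, 797 shared with the 841) against normal luminal cells of both times, and ran from 119 to 1338 without single arrays. For K8PIK luminal cells at 8 weeks the 46 calls became 4 and 7 in the first 2 of these settings and 70 with the replicate block, and ran from 6 to 58. The 2143 basal calls became 1044 with all 28 arrays and ran from 343 to 1952. The 11 genes that differed from the 8-week contrast became 1 and 1 in those settings, 4 with no filter on dim genes, 21 with the mean of probe sets, 28 with a trended robust prior, 29 after quantile normalization and 46 with the replicate block, and ran from 0 to 138. The 940 that differed from the basal contrast became 169, 413 and, with the replicate block, 1738, and ran from 65 to 2359. After quantile normalization they split into 413 higher and 518 lower. The block gave 1104 calls between K5PIK and K8YFP luminal cells. Deviations of same-numbered replicates correlated at -0.078 to 0.386 between groups, and at 0.365 between K5PIK luminal and K5PIK basal cells. Labels do not say whether equal numbers mark shared animals, and this was not tested. Basal-high rises became 33 of the 60 at a minimum of 4-fold and ran from 9 to 81, and luminal-high falls became 325, against 182, with no minimum fold and 37 at 4-fold, and ran from 39 to 341. Over 133 named genes, 1341 of 1722 alternative values kept direction and side of the threshold, 359 lost the call, 19 gained it and 3 changed sign. The sign changed for Bcat1 (0.00 and 0.08; range -0.15 to 0.08 without single arrays) and Fabp4 (0.16; range -1.93 to 0.16), neither of them called. The cause of these shifts was not tested.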

Other observations

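The following genes outside the lists were named after their values were seen. They were picked because they changed, so they say nothing of other genes with like functions. Among further matrix genes, elastin, Eln, rose by 1.49 ± 0.37 (8.25 and 7.46 in K5PIK luminal cells, against 6.68 and 6.04 in K8YFP luminal cells, adjusted p = 0.0331), beside the cartilage collagen genes Col11a1 (1.85 ± 0.34, adjusted p = 0.00877) and Col9a3 (1.68 ± 0.26, adjusted p = 0.00428). Spon1 rose by 1.45 ± 0.29 and Smoc1 by 1.43 ± 0.32. The glutamate transporter genes Slc1a1 (8.96 and 8.18 against 7.19 and 6.78, 1.59 ± 0.39) and Slc1a2 (7.14 and 6.33 against 5.68 and 5.23, 1.28 ± 0.30) also rose. Of these, the Eln, Spon1, Slc1a1 and Slc1a2 calls held only without K5PIK luminal replicate 2 among single-array omissions, and the Smoc1 call only without replicate 1. Col11a1 lost its call without either K8YFP luminal array and Col9a3 without replicate 2.

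Both subunits of the ATP-sensitive potassium channel fell. The sulphonylurea receptor gene Abcc8 lay at 5.30 and 5.96 in K5PIK luminal cells, against 7.42 and 7.79 in K8YFP luminal cells (-1.97 ± 0.29, adjusted p = 0.00324), and the pore gene Kcnj11 at 6.07 and 5.65 against 7.63 and 7.45 (-1.68 ± 0.30, adjusted p = 0.0083). Abcc8 was called without each of the 4 arrays, whereas Kcnj11 lost its call without either K8YFP luminal array. The uroplakin genes Upk2 (-1.94 ± 0.43, adjusted p = 0.0205) and Upk3a (-2.01 ± 0.53, adjusted p = 0.0437), which encode plaque proteins of bladder epithelium, fell with K5PIK replicates apart (6.44 and 7.61 for Upk2, 4.72 and 6.95 for Upk3a). Further falls were those of the glutathione transferase gene Gsta4 (-2.12 ± 0.46), Ptgr1 (-1.66 ± 0.38), Akr1b8 (-1.46 ± 0.30), Mgst2 (-1.45 ± 0.19) and Gsr, the glutathione reductase (7.09 and 7.23 against 8.52 and 8.48, -1.34 ± 0.26, adjusted p = 0.0124). Of these Mgst2 was called without each array, Akr1b8 lost its call without either K8YFP luminal array, and Gsta4, Ptgr1, Gsr, Upk2 and Upk3a held theirs only without K5PIK luminal replicate 2. After quantile normalization Upk3a was not called (adjusted p = 0.0559). Mgst2 lay at 4.12 and 4.28 in K5PIK luminal cells, against 5.54 and 5.76 in K8YFP luminal cells. Normal luminal cells at 8 weeks held it at 4.48 and 4.68, nearer to the K5PIK level. Fhl1, a LIM-domain gene of muscle, fell by 2.61 ± 0.42 (3.37 and 3.67 against 5.99 and 6.27, adjusted p = 0.00475), and lost its call without K8YFP luminal replicate 2. Both K5PIK values of Fhl1 were under the 40th percentile, and normal luminal cells at 8 weeks lay at 4.73 and 3.50, overlapping them.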
